A study of Caenorhabditis elegans with 4 samples.

Results

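Chromosome V of Caenorhabditis elegans carries 449 of the 2173 regions in a deposited series-wide list of RNA polymerase III peaks, and these 449 regions are described here. They were taken by chromosome name alone, so none of their measured values entered the choice. Chromatin immunoprecipitation with sequencing (ChIP-seq) was made in 4 libraries of young adult hermaphrodites of the wild-type strain N2 grown at 20 °C. All libraries share that strain, stage, sex, genotype and temperature. The 2 ChIP libraries, replicates 1 and 2, were directed, per the labels, at RPC-1, which is the largest of the polymerase's subunits, and the 2 input libraries hold chromatin DNA kept back before the precipitation. The labelled worms are whole animals, so a peak belongs to no one tissue. The labels' protocol describes anti-GFP antibodies for tagged factors and an antibody to RNA polymerase II, and it gives none against RPC-1 for this strain, whose labels name no GFP tag.

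RNA polymerase III makes short untranslated RNAs, above all transfer RNAs (tRNAs) and the 5S RNA of the ribosome. At tRNA genes the factor TFIIIC binds promoter elements inside the transcribed part and brings TFIIIB, which recruits the polymerase. At 5S genes TFIIIA binds first. In C. elegans the 5S genes lie in a tandem array on chromosome V, where they alternate with genes for SL1 RNA, the leader that is spliced onto many messenger RNAs and is made by RNA polymerase II. In the gene table of the later assembly WBcel235, 15 of the 16 genes for 5S RNA (rrn-4) and all 12 genes for SL1 RNA (sls-1) are on this chromosome, and 13 of the 15 rrn-4 genes have an sls-1 gene as a direct neighbour. The same table puts 78 of 612 nuclear tRNA genes (12.7%), 91 of 209 tRNA pseudogenes (43.5%) and 4995 of 19971 protein-coding genes (25.0%) on chromosome V. The peaks are positioned on the WormBase build WS220, for which no annotation or genome sequence was used here. No peak was therefore assigned to a gene, the peaks on the 5S array were not picked out, and the regions are named by position.

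Each list gives a start, an end and a p-value or q-value from the authors' peak caller, PeakSeq (the files do not say which of the 2 it is). It is called the caller value, and a smaller value is a better rank within a list. The lists held 2173 peaks series-wide, 1009 in replicate 1 and 2041 in replicate 2. They hold no read counts, so the depth is unknown, and a region missing from a list was not called there, which is no measurement of absent polymerase. Quintiles are 5 equal groups of a whole list by caller value, from 1 (best) to 5. Two-sided Fisher's exact tests compared shares of peaks, with Benjamini-Hochberg adjustment over 10 comparisons and a threshold of 0.05. Their p-values refer to peaks, neighbours among which are not independent, and not to the spread between libraries. Under an alternative setting, the new p-value was adjusted in place of its main one, with the other comparisons kept at their main p-values. No adjustment was made over the alternatives themselves.

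Chromosome V was about as dense in peaks as its length would give, but it was poor in the best ones. Its 449 peaks were 20.7% of the series-wide list, on 20.8% of the genome span, at 21.5 per Mb, and they covered 169 kb, or 0.810% of the chromosome. The other autosomes had between 16.7 peaks per Mb on I and 26.8 on III, and X had 24.4. In replicate 1 chromosome V held 158 peaks (15.7% of the list, 7.58 per Mb), and in replicate 2 it held 438 (21.5%, 21.0 per Mb). Of the 449 peaks, 51 (11.4%, 95% Wilson interval 8.75 to 14.6) were in the best quintile, against 384 of 1724 (22.3%, 20.4 to 24.3) on the other chromosomes. That is a difference of −10.9 points of percentage, with a 95% interval (Newcombe) of −14.2 to −7.13 and an adjusted p = 9.7e-07 by Fisher's exact test. Against the other 4 autosomes alone, where 202 of 1292 peaks (15.6%) were in that quintile, it was −4.28 points and did not pass (Fisher's exact test, adjusted p = 0.059). When either replicate's list replaced the series-wide one, the shares were 10.1% of 158 peaks in replicate 1 and 10.5% of 438 in replicate 2. On the other chromosomes, X included, they were 21.9% of 851 and 22.6% of 1603. The contrast with the other autosomes alone was not tested in the replicate lists.

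In the series-wide list, the share of peaks on chromosome V was lowest in the best quintile and highest in quintiles 4 and 5. It was 11.7% in the best series-wide quintile (51 of 435, 9.03 to 15.1), 20.2% in quintile 2, 18.4% in quintile 3, 27.1% in quintile 4 (23.2 to 31.5) and 25.8% in quintile 5 (112 of 434, 21.9 to 30.1). The interval of the best quintile lay below the 20.8% of the span and contained the 12.7% of tRNA genes. Those of quintiles 4 and 5 lay above the span share and contained the 25.0% of protein-coding genes. The replicate 1 intervals of the same quintiles did not contain these gene shares: its best quintile had an interval of 4.93 to 12.5, and those of its quintiles 4 and 5 ended at 24.8 and 23.8. Other quintiles of replicate 1 did, as quintile 2 (9.35 to 18.7) contained the tRNA share and quintile 3 (15.3 to 26.4) the protein-coding share. In replicate 2 the best quintile (8.54 to 14.7) contained the tRNA share, and each of quintiles 2 to 5 contained the protein-coding share. The shares of tRNA pseudogenes (43.5%) and 5S genes (93.8%) lay above the interval of every quintile in each list. These are chromosome shares chosen after seeing the data, and an interval that contains one does not tell gene classes apart. Whether a given peak lies on a gene of any of these classes was not tested. Replicate 2 had 11.2%, 22.3%, 21.1%, 25.5% and 27.2% from the best to the worst quintile. Replicate 1 had 7.92%, 13.4%, 20.3%, 18.8% and 17.9%, so its share also started low but did not pass that of the span.

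**Figure D1:**
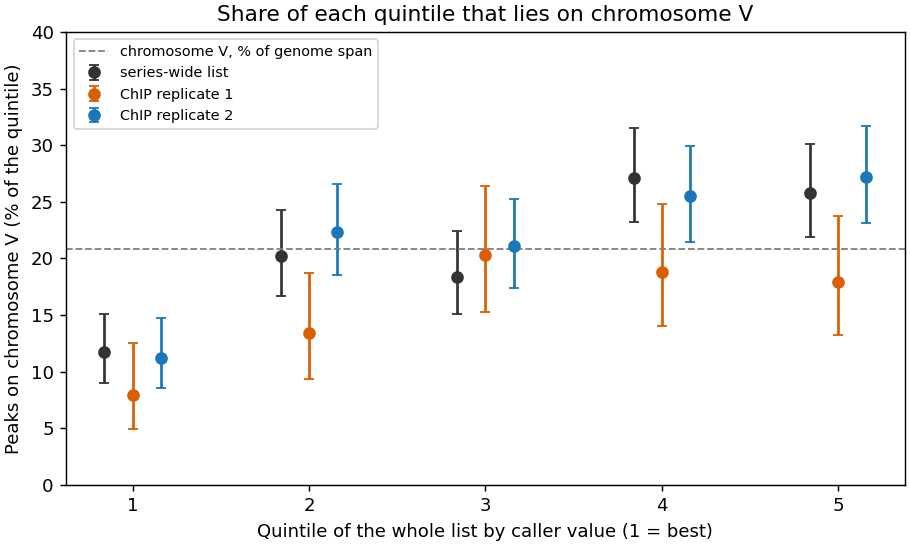
Share of the peaks of each quintile (x axis, 1 = best caller values) that lay on chromosome V (y axis, percent), with 95% Wilson intervals, for the series-wide list and both replicate lists; the dashed line is the share of the genome span, 20.8%. In all 3 lists the best quintile lies below the line, at 11.7%, 7.92% and 11.2%.

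The 10 best chromosome V peaks were all called in both ChIP libraries, as were 383 of the 384 best-quintile peaks of the other chromosomes. The best ranked 48 in the series-wide list, 18 in replicate 1 and 42 in replicate 2, and 11 of the 100 best series-wide peaks were on this chromosome. The first 3 in order happen to be the best of the left, middle and right parts of the chromosome (3 equal lengths). V:5586925-5588400 had a caller value of 1.24e-192 series-wide (rank 48), 5.44e-71 in replicate 1 (rank 61) and 1.12e-142 in replicate 2 (rank 84). At 1476 bp it was also 1 of the 5 widest. V:11782670-11783374 had values of 2.3e-191 (rank 50), 2.17e-80 (rank 39) and 6.64e-172 (rank 44). V:15464838-15465484 had 7.6e-189 (rank 53), 9.94e-72 (rank 59) and 2.04e-173 (rank 42), and was the best chromosome V peak of replicate 2. The best of replicate 1 was another one, V:12303216-12303965, which ranked 18 there, 47 in replicate 2 and 74 series-wide.

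The remaining 6 of the 10 best series-wide peaks on the chromosome were V:11313673-11314591, V:15190766-15191402, V:9969959-9970553, V:15873571-15874260, V:19642821-19643428 and V:8500182-8500870. They ranked from 60 to 99 series-wide, from 44 to 86 in replicate 1 and from 48 to 118 in replicate 2. Of all 10, only V:19642821-19643428 was outside the 10 best chromosome V peaks of a replicate, at place 11 in replicate 2. Of the 10, 8 were between 595 and 750 bp wide, and the others measured 919 and 1476 bp.

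The widths of the chromosome V peaks followed their rank. The median was 329 bp, against 365 bp over the whole series-wide list, with a range of 2 to 1953 bp. By quintile it was 637, 476, 337, 236 and 195 bp from the best to the worst, and 636, 450, 326, 243 and 196 bp on the other chromosomes. Across the 449 peaks, Spearman's rho between width and rank number was −0.718; this describes regions called in the same libraries. A width above the list's median was found for 189 peaks (42.1%, 37.6 to 46.7), against 896 of 1724 (52.0%, 49.6 to 54.3) on the other chromosomes and 49.9% of all peaks. That difference was −9.88 points (Fisher's exact test, adjusted p = 0.00051). It was −0.396 points once the other chromosomes were weighted to the rank deciles of the chromosome V peaks (exact test stratified by decile, adjusted p = 0.98), and −5.43 points against the other autosomes alone (Fisher's exact test, adjusted p = 0.096). In the replicate 1 list it was −7.21 points (Fisher's exact test, adjusted p = 0.2).

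A few chromosome V peaks went against this relation. The widest, V:7328-9280 (1953 bp), ranked only 1547 and was called in neither replicate. It was the first series-wide peak on the chromosome. V:5284011-5285454 (1444 bp) ranked 1435, had the same start and end in replicate 1 (rank 842 there) and was not called in replicate 2. The other 2 of the 5 widest were strong: V:7919518-7921184 (1667 bp, rank 409) and V:8495067-8496364 (1298 bp, rank 151) were called in both replicates. V:8495067-8496364 alone covered 2 separate peaks of replicate 1. At the other end, 18 peaks were narrower than 50 bp, of 67 in the whole list. None of these 18 was called in both replicates, 10 were called in replicate 2 alone and 8 in neither. Over all series-wide peaks, 42.3% were in both, 37.5% in replicate 2 alone and 17.0% in neither. Of the 18, 17 were in quintiles 4 and 5, where 0 of 118 and 0 of 112 chromosome V peaks of any width were in both. The counts are thus no trait of narrow peaks apart from their rank. The 10 in replicate 2 alone overlapped replicate 2 peaks of 52 to 346 bp (median 198 bp), each wider than the series-wide interval it overlapped.

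**Figure D2:**
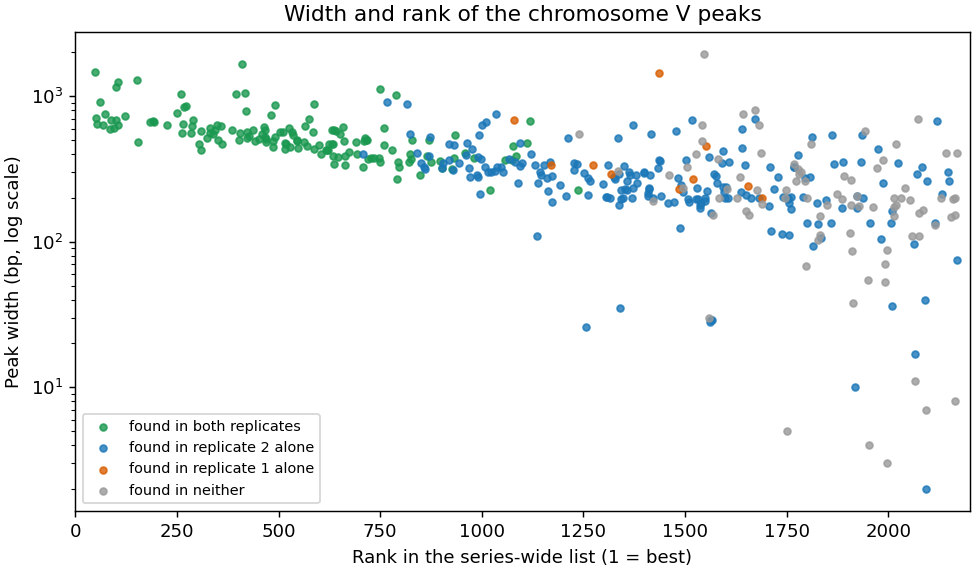
Width (y axis, bp, log scale) against rank in the series-wide list (x axis, 1 = best) for the 449 chromosome V peaks, coloured by the replicate lists they overlapped. Peaks in both replicates stop at rank 1237, and the peaks narrower than 50 bp start at rank 1257.

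Replicate 2 held most of the chromosome V regions, and replicate 1 held mainly those of better rank. Peaks counted as found when they overlapped by at least 1 bp. Both replicates held 147 of the 449 (32.7%, 28.6 to 37.2; 42.3% of all series-wide peaks), replicate 2 alone held 207 (46.1%; 37.5% of all), replicate 1 alone 10 (2.23%; 3.22% of all), and 85 (18.9%, 15.6 to 22.8; 17.0% of all) were in neither. The 147 had a median rank of 535 and a median width of 508 bp, and all of them were among the 224 best chromosome V peaks. Those in replicate 2 alone had a median rank of 1439 and width of 275 bp, and those in neither 1886 and 199 bp. In order of caller value, the first chromosome V peak that was not in both was number 108, at rank 708 of the series-wide list. The best in neither replicate was V:17935643-17936194, with a series-wide value of 5.51e-08 (rank 1239) and a width of 552 bp.

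Against the other chromosomes, a smaller share of chromosome V peaks was found in replicate 1, while no difference passed the test in replicate 2. Replicate 1 held 157 of 449 (35.0%, 30.7 to 39.5), against 832 of 1724 (48.3%, 45.9 to 50.6) elsewhere and 45.5% of all. This was a difference of −13.3 points (−18.2 to −8.20, adjusted p = 2.1e-06 by Fisher's exact test). The other autosomes alone had 42.7%, a difference of −7.76 points (Fisher's exact test, adjusted p = 0.011), and X had 64.8%. Replicate 2 held 354 (78.8%, 74.8 to 82.4), against 1380 (80.0%, 78.1 to 81.9) elsewhere and 79.8% of all, a difference of −1.20 points (−5.61 to 2.83, Fisher's exact test, adjusted p = 0.66). Against the other autosomes alone that difference was 1.29 points, in the other direction (Fisher's exact test, adjusted p = 0.66). The share in both replicates differed by −12.0 points (−16.8 to −7.00, Fisher's exact test, adjusted p = 1.3e-05), and by −5.73 against the other autosomes alone (Fisher's exact test, adjusted p = 0.062). The share in neither differed by 2.46 points (−1.36 to 6.69, Fisher's exact test, adjusted p = 0.38).

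At equal rank, a comparison added after the data were seen, these differences changed. With the other chromosomes weighted to the rank deciles of the chromosome V peaks, the deficit in replicate 1 was −2.29 points (exact test stratified by decile, adjusted p = 0.24), and that in both replicates −0.895 (adjusted p = 0.6 in the same exact test). In replicate 2 chromosome V then had the larger share, 78.8% against 73.9%, a difference of 4.94 points (exact test stratified by decile, adjusted p = 0.022). That adjustment ranked its unadjusted p = 0.011, from the same exact test, among the main p-values of the other comparisons. The equal-rank p-values were not adjusted among themselves, so whether this difference would pass there is not known. By quintile, replicate 1 held all 51 chromosome V peaks of the best quintile (99.7% elsewhere). In quintile 2 it held 79 of 88 (89.8%, against 87.9% elsewhere). It held 20 of 80 in quintile 3 (25.0% against 32.5%) and 7 of 118 in quintile 4 (5.93% against 8.52%). In quintile 5 it held 0 of 112 (Wilson upper limit 3.32%), against 0.621% elsewhere. Replicate 2 held all chromosome V peaks of the 2 best quintiles (100% and 99.7% elsewhere). In quintile 3 it held 76 of 80 (against 90.4% elsewhere). It held 87 of 118 in quintile 4 (73.7% against 67.5%) and 52 of 112 in quintile 5 (46.4% against 36.0%).

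**Figure D3:**
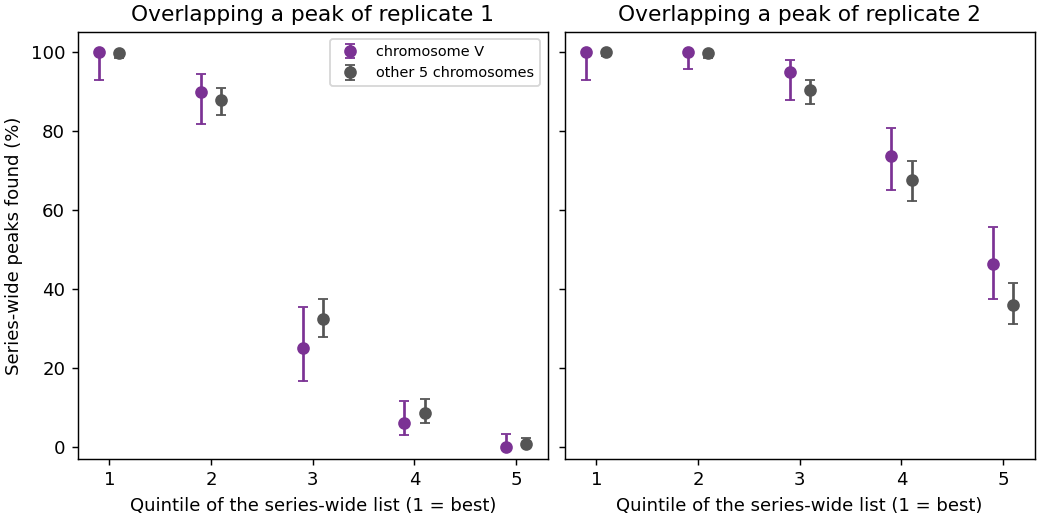
Share of series-wide peaks (y axis, percent, with 95% Wilson intervals) that overlapped a peak of replicate 1 (left) or replicate 2 (right), by quintile of the series-wide list (x axis), for chromosome V and the other 5 chromosomes. In quintile 5, replicate 2 held 46.4% of the chromosome V peaks and 36.0% of the others.

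Set directly against each other, the replicate lists met on nearly all replicate 1 peaks of chromosome V. In replicate 1, 148 of 158 peaks (93.7%, 88.7 to 96.5) met one of replicate 2, where the share over the genome was 92.8%. All 158 were in the series-wide list, against 99.8% on the other chromosomes. Of 438 peaks of replicate 2, 146 (33.3%, 29.1 to 37.9) overlapped one of replicate 1, where the share over the genome was 45.0%. The series-wide list held 351 of the 438 (80.1%), against 85.7% on the other chromosomes and 83.3% on the other autosomes. From the best to the worst quintile of replicate 2, replicate 1 held 46 of 46, 79 of 91, 20 of 86, 0 of 104 and 1 of 111 of its chromosome V peaks. These counts by quintile were not made for the other chromosomes, so the fall cannot be called particular to chromosome V. By quintile of the series-wide list, the share held by replicate 1 also fell elsewhere, from 99.7% in the best to 0.621% in quintile 5. Over the 148 shared pairs, caller values had a Spearman's rho of 0.929, and their −log10 a Pearson's r of 0.956, across peaks of one chromosome in the same pair of libraries. The 10 best of each list had 9 in common, the 20 best 18 and the 50 best 45.

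Shared peaks were broader and had smaller caller values in replicate 2. The replicate 2 peak was wider in 139 of 148 pairs (93.9%), with a median of 521 bp against 388 bp in replicate 1, and it contained the whole replicate 1 peak in 125. Its caller value was the smaller one in 147 of the 148. The depth of either library is unknown, and its part in this was not tested. In 2 places a replicate 2 peak spanned 2 peaks of replicate 1. The replicate 2 peak V:8494943-8496360, with a value of 4.71e-102, spanned V:8495786-8496331 (8.85e-35) and V:8495148-8495405 (1.33e-06). V:18370035-18371364, with 6.83e-43, spanned V:18370788-18371332 (8.18e-13) and V:18370094-18370348 (0.000273). The single pair with the smaller value in replicate 1 was V:20019473-20019619 (0.000207, place 140 on the chromosome), whose replicate 2 peak had 0.00056 and place 391.

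**Figure D4:**
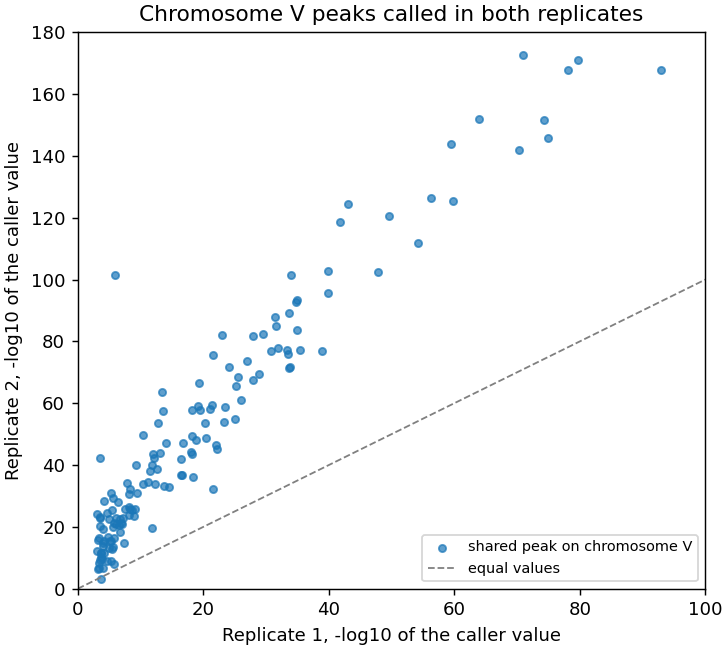
The −log10 of the caller value in replicate 1 (x axis) and replicate 2 (y axis) for the 148 replicate 1 peaks of chromosome V that overlapped a replicate 2 peak; each point is a pair and the dashed line marks equal values. Points lie above the line in 147 pairs.

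The regions that a single replicate lacked were not among the best of the other list. The 10 chromosome V peaks of replicate 1 missing from replicate 2 were all in the series-wide list. The best 5 were V:9731014-9731615 (rank 732 of replicate 1), V:11764416-11764711 (764), V:5284011-5285454 (842), V:16623048-16623265 (874) and V:12318171-12318458 (901). Of replicate 2, 292 peaks were missing from replicate 1, with a median rank of 1506.5 and a median width of 277 bp, against 537 and 520 bp for the 146 shared ones. The best 5 were V:4731369-4731844 (rank 647 of replicate 2), V:19283180-19284041 (667), V:19670643-19671587 (731), V:13176358-13176716 (736) and V:2799478-2799913 (759), all of them in the series-wide list. Over the other chromosomes, the best unshared replicate 2 peak ranked 9.

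Along the chromosome, peaks were densest toward the right end. The span, 20.85 Mb to the end of the last peak, was cut into 3 equal parts, left, middle and right, at 6.95 and 13.90 Mb. The left part held 107 peaks (23.8%, 20.1 to 28.0; 15.4 per Mb), the middle part 134 (29.8%, 25.8 to 34.2; 19.3 per Mb) and the right part 208 (46.3%, 41.8 to 50.9; 29.9 per Mb). The other autosomes together had 34.4%, 31.8% and 33.8% of their peaks in these parts. Pooling can hide an excess at either end of a single autosome, so these shares do not show how uneven each one is. The right part led in both replicates, with 43.7% of 158 peaks (36.2 to 51.5) in replicate 1 and 47.0% of 438 (42.4 to 51.7) in replicate 2. This was seen before it was described and was not tested. On C. elegans autosomes the arms differ from the central part in recombination, repeats and chromatin; the equal parts used here are cuts by length and not those domains.

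Tests of the middle part against the rest found no difference past the threshold. The middle share of chromosome V differed from that of the other autosomes by −1.97 points (−6.77 to 3.08, Fisher's exact test, adjusted p = 0.6; 31.3% of all autosomal peaks). In the replicate 1 list alone it had the other sign, at 0.972 points (Fisher's exact test, adjusted p = 0.94). Within chromosome V it was 27.7% of the better 224 peaks and 32.0% of the other 225, a difference of −4.32 points (−12.7 to 4.13, Fisher's exact test, adjusted p = 0.51). Both replicates held 32.8% of the middle peaks and 32.7% of the outer ones, a difference of 0.137 points (−8.98 to 9.83, adjusted p = 1 by Fisher's exact test). The 51 best-quintile peaks had 15 in the left, 17 in the middle and 19 in the right part (37.3%, 25.3 to 51.0). The share of the right part was highest in quintile 3, with 45 of 80 peaks (56.2%, 45.3 to 66.6).

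The right part held a stretch with many best-quintile peaks and a longer one with few. Between 15 and 17 Mb lay 49 of the 449 peaks (10.9%) and 13 of the 51 best-quintile peaks (25.5%), along with 18 of the 230 peaks of quintiles 4 and 5 (7.83%). Between 17 Mb and the end lay 139 peaks (31.0%), with 4 of the 51 best-quintile peaks (7.84%). It held 77 of the 230 peaks of quintiles 4 and 5 (33.5%), close to its share of all peaks. Replicate 1 had 6 of its 16 best-quintile peaks in the stretch from 15 to 17 Mb and 1 beyond 17 Mb; replicate 2 had 11 and 4 of its 46. The bounds of these stretches were chosen after the counts were seen, and no test was made. Elsewhere, the Mb from 3 to 4 had only 9 peaks, 5 of them in the series-wide best quintile (replicate 1 had 5 peaks there and none in its own best quintile), and that from 10 to 11 had 11, with none in the best quintile and 10 in quintiles 4 and 5.

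**Figure D5:**
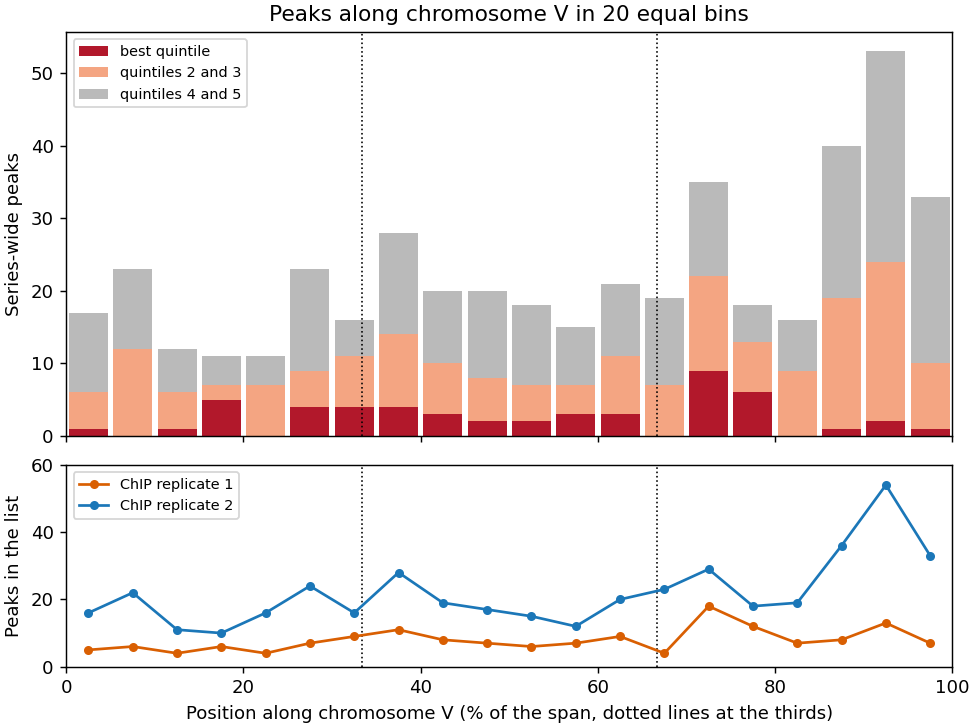
Number of peaks (y axes) in 20 equal bins of the chromosome V span (x axis, percent of the span; dotted lines mark the 3 equal parts). Above, series-wide peaks stacked by quintile of the whole list; below, the peaks of each replicate. The tallest bin is the 19th, with 53 series-wide peaks of which 2 are in the best quintile, while the 15th bin holds 9 of the 51 best-quintile peaks.

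Gaps were shortest in the right part, while the left and middle parts did not follow the order of their densities. The median gap between neighbouring peaks was 22962.5 bp over the chromosome, 32094 bp in the left part, 34701 bp in the middle and 15034 bp in the right. Gaps of 2 kb or less numbered 69 of 448, and 40 of them were in the right part, 16 in the middle and 13 in the left. The shortest was 207 bp. The longest stretch with no peak was V:1892926-2262097, of 369172 bp, and 66 gaps were over 100 kb.

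Close runs held a slightly larger share of the peaks on chromosome V than on the other chromosomes together, and the difference depended on how a run was defined. Runs of 3 or more peaks with gaps of at most 2 kb held 53 of the 449 peaks (11.8%, 9.14 to 15.1), against 142 of 1724 elsewhere (8.24%, 7.03 to 9.63) and 8.97% of all peaks. By chromosome, this share was 13.8% on II and 10.8% on III, 7.49% on IV, 5.18% on I and 4.63% on X, so II was above V. The difference was 3.57 points (0.560 to 7.09, Fisher's exact test, adjusted p = 0.041). Against the other autosomes alone it was 2.36 points (Fisher's exact test, adjusted p = 0.34). With gaps of at most 1 kb it was −0.167 points (Fisher's exact test, adjusted p = 1), and with gaps of at most 5 kb it was 12.4 points, from 118 peaks (26.3%) against 240 (13.9%; Fisher's exact test, adjusted p = 2.1e-08). At equal rank it was 3.60 points (exact test stratified by decile, adjusted p = 0.051). For the better 50% of the list, the other peaks were removed and runs were formed anew, so a run could break where a weaker peak was lost. Of 185 chromosome V peaks, 4 (2.16%) were then in runs of the 2 kb kind, against 5.55% elsewhere. In the replicate 1 list the share in runs was 1.90% of 158 against 5.29%, a difference of −3.39 points (Fisher's exact test, adjusted p = 0.14). In the replicate 2 list it was 9.82% against 7.24%, or 2.58 points (Fisher's exact test, adjusted p = 0.17). All peaks of a run enter it together, and the 53 peaks form 15 runs. The p-values for runs treat each peak as separate and are therefore likely too small.

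There were 15 such runs of the 2 kb kind, 9 of them with 3 peaks, 5 with 4 and 1 with 6. The right part had 9 of the 15, the left 4 and the middle 2. The longest, V:7917314-7925076, had 6 peaks over 7763 bp whose centres lay between 640 and 2384.5 bp apart, with a median of 1058 bp. Replicate 2 had 6 peaks there and replicate 1 had 4, and the 2 best, V:7924032-7925076 (rank 396) and V:7919518-7921184 (rank 409), were called in both. Its weakest, V:7923398-7923594, ranked 1532. The run thus mixed strong and weak regions within a few kb.

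The 5 runs of 4 peaks were of different kinds. V:15185934-15191402 contained 1 of the 10 best peaks of the chromosome, V:15190766-15191402 (rank 68), beside neighbours at ranks 961, 1742 and 2013. V:18370035-18374061 had ranks from 565 to 1555, with 2 of its peaks in both replicates. V:15511645-15516771 had ranks from 659 to 1847, and its 4 peaks were found in both replicates, in replicate 1 alone, in replicate 2 alone and in neither, 1 each. V:20214949-20219504 (ranks 1038 to 1754) and V:6222819-6228095 (ranks 1477 to 2014) had no peak in replicate 1. Centres in V:20214949-20219504 lay between 1272 and 1533.5 bp apart, and all 4 of its peaks were in replicate 2; in V:6222819-6228095 they were 1258.5 to 1963 bp apart and 2 of 4 were in replicate 2.

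The split of a region into peaks differed between lists. On chromosome V, 3 replicate 2 peaks each overlapped 2 or more series-wide peaks, 1 series-wide peak overlapped 2 of replicate 1 and none overlapped 2 of replicate 2. Only 1 series-wide peak shared both ends exactly with a replicate 1 peak and 8 with a replicate 2 peak. Of the 147 peaks in both replicates, the series-wide interval was wider than that of replicate 1 in 146 and wider than that of replicate 2 in 52.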

How the data were processed

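RPC-1 ChIP-seq and input libraries of N2 worms were made in 2 replicates each. The authors deposited 3 PeakSeq peak lists on WS220, per the file headers (build) and the files' source field (caller): one series-wide and one per ChIP replicate. How the series-wide list combines the replicates, and the aligner, are not given in the sources read. Column 6 of the deposited lists holds a p-value or q-value, which served to rank the peaks of each list. No peak list of the inputs was analysed here. Peaks were taken by chromosome, and overlaps of at least 1 bp were computed in Python 3.11.15 with pandas 2.3.3 and numpy 2.4.6 and checked against bedtools 2.31.1. Fisher's exact tests (scipy 1.17.1), 95% Wilson and Newcombe intervals and Benjamini-Hochberg adjustment over 10 comparisons followed, after tests on simulated data. Intervals cover counting of peaks only. The chromosome's span ends at its last peak. Described regions are the 10 best, the 5 widest, the 5 best missing from either replicate and the 6 largest runs. The members and lists were chosen with earlier results of these data known. Equal-rank comparisons, the 50 bp limit, the Mb stretches and gene class shares were chosen after seeing the data.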

Additional observations from a re-analysis of the deposited data

How the results depend on the processing

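With the other autosomes alone, differences in points were −5.73 for both replicates, −4.28 for the best quintile, −5.43 for width and 2.36 for runs, none past the threshold, and 1.29 for replicate 2, reversed. At equal rank they were −2.29 for replicate 1, −0.895 for both, −0.396 for width and 3.60 for runs, none past the threshold; replicate 2 reversed to 4.94 and neither to −3.54. In the better 50%, replicate 2 reversed to 3.16, neither to −2.82 and the middle share against the other autosomes to 0.612. Runs, formed anew from the peaks kept, reversed to −3.39 there. With the middle 50% of the span, the middle share reversed to 1.55 by rank and to 1.60 against the other autosomes. With neighbouring peaks merged, the share in both replicates by position reversed to −4.65, and with gaps of at most 1 kb runs reversed to −0.167. Leaving out one replicate list at a time gave −7.69 to −7.21 for width, −2.39 to 0.972 for the middle share against the other autosomes, −12.1 to −11.7 for the best quintile, −3.65 to −2.53 for the middle share by rank and −3.39 to 2.58 for runs. The replicate 1 deficit kept its direction and passed under the other alternatives run, including −7.76 against the other autosomes. The cause of these changes was not tested. No paired analysis was possible because the groups that share replicate numbers are ChIP and input, no input peak list was analysed here, and each test compares chromosomes within one list. The lists give no read counts, so depth and its effect on the calls are unknown.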
